A study of Mus musculus with 7 samples.

Results

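The enzymes that make nucleotides and the folate-bound one-carbon units used to build them were followed in CD8 T cells that had divided under deletional tolerance, under priming or in a lymphopenic host. The group was a named list of 37 genes. Of these, 36 had a probe set assigned to a single gene symbol on the Affymetrix mouse array, and Impdh2 was not analysed here. All 36 passed the filter on low values (log2 of at least 5 on at least 2 arrays), out of 18194 genes named and 8203 genes tested. Tyms and Tk1 passed it through arrays of divided cells alone, so a difference from naive cells was built into their passing. Where a gene had several probe sets, the one with the highest mean was used.

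The cells were OT-I cells from Ly5.1 C57BL/6 donors, CD8 T cells with a transgenic receptor for a peptide of chicken ovalbumin (OVA). Naive CD44lo donor cells, loaded with the division dye CFSE, were transferred intravenously into 4 kinds of host. RIP-OVAhi hosts, which carry OVA under the rat insulin promoter, gave cells undergoing deletional tolerance (2 arrays, 20 mice pooled per array, sacral and pancreatic lymph nodes, 60 h). OCS/LPS hosts, given OVA-coated splenocytes and lipopolysaccharide, gave primed cells (2 arrays, 10 mice pooled per array, spleen, 60 h). Rag-/- hosts, which have no T or B cells of their own, gave cells in lymphopenia-induced proliferation (1 array, 10 mice pooled, spleen, 5 days). Antigen-free B6 hosts gave the undivided naive cells (2 arrays, 10 mice pooled per array, spleen, 60 h). The divided cells had undergone at least 2 divisions by dye dilution, and all cells were sorted as CD8+ Ly5.1+. Because only RIP-OVAhi cells came from lymph node, host and tissue cannot be told apart in any comparison that includes them.

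Ribonucleotide reductase removes an oxygen from the ribose of nucleoside diphosphates and so makes the precursors of DNA, and thymidylate synthase with dUTPase and thymidine kinase supplies the thymidine nucleotides. The pyrimidine and purine rings are built from amino acids, bicarbonate and, for purines, one-carbon units carried on folate, which come largely from serine through the mitochondrial enzymes Shmt2, Mthfd2 and Mthfd1l. Resting T cells hold small nucleotide pools, and activated T cells raise both synthesis and salvage before they divide.

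Between replicate arrays, the 36 genes differed less than all tested genes in RIP-OVAhi and naive cells and more in OCS/LPS cells. The median absolute difference between replicates was 0.0958 log2 units in RIP-OVAhi cells, 0.206 in OCS/LPS cells and 0.248 in naive cells, against 0.117, 0.124 and 0.269 over all tested genes in the same groups. Array medians lay between 2.97 and 3.08, and 33.7% to 34.5% of probe sets stood at log2 5 or more. The 6 CD8 T cell markers named on the array stood above log2 5 on every array, with summed levels of 14.7 to 15.0 in log2. The 7 markers of cycling cells summed to 14.97 to 15.11 in RIP-OVAhi cells, 15.18 to 15.38 in OCS/LPS cells and 13.67 in Rag cells, against 12.94 to 13.10 in naive cells. Their part in the results was not tested. Markers of other cell types were lower in RIP-OVAhi than in OCS/LPS cells. The 4 MHC class II genes summed to 5.57 to 5.78 in RIP-OVAhi cells, 7.65 to 8.40 in OCS/LPS cells and 9.16 in Rag cells, against 7.66 to 7.68 in naive cells. The 3 plasma cell genes summed to 4.44 to 4.60 in RIP-OVAhi cells, 8.21 to 9.08 in OCS/LPS cells and 4.51 in Rag cells, against 8.22 to 8.95 in naive cells. The 4 B cell genes named summed to 8.44 to 8.96 in RIP-OVAhi cells, 9.28 to 9.69 in OCS/LPS cells and 7.24 in Rag cells, against 7.53 to 8.56 in naive cells, with Cd79a between 2.14 and 2.24 on every array. The part of these transcripts was not tested either. The Gapdh control's 3' minus 5' signal was 2.08 and 2.03 in RIP-OVAhi cells, 1.85 and 1.89 in OCS/LPS cells and 2.21 in Rag cells, against 2.59 and 2.43 in naive cells, and its part was likewise not tested. The Xist transcript was near background on arrays numbered 1 (2.67 to 2.74) and high on those numbered 2 (12.7 to 13.0). The 2 replicates of a group therefore came from different pools. Prps1, Prps2 and Hprt are X-linked.

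In RIP-OVAhi cells against naive cells, 11 of the 36 genes rose (30.6%) and 4 fell (11.1%), where 18.1% of all tested genes rose and 11.6% fell. In OCS/LPS cells against naive cells, 15 rose (41.7%) and 2 fell (5.56%), where 20.5% of all tested genes rose and 12.3% fell. Calls were made in limma at an adjusted p under 0.05 over all tested genes. The same 11 genes that rose in RIP-OVAhi cells were among the 15 that rose in OCS/LPS cells: Rrm1, Rrm2, Tyms, Tk1, Dut, Dck, Umps, Pfas, Adss, Hprt and Mthfd2. These comparisons share the naive arrays. Rrm1, Rrm2, Tyms, Tk1, Dut and Mthfd2 were called in both comparisons under every alternative that tested them. Tyms was tested under 13 of 14 alternatives, because with the mean of its probe sets it was below the filter. Each further call was lost under at least 1 alternative. Without any single RIP-OVAhi or OCS/LPS array, fewer of the 36 genes were called against naive cells, in RIP-OVAhi as in OCS/LPS cells. Those fits leave 1 array in a group, and the share of all tested genes called in them was not computed. The median difference of the list was 0.04 in RIP-OVAhi cells and 0.33 in OCS/LPS cells on the log2 scale, beside 0.06 and 0.08 for all tested genes. With each array centred on the median of the tested genes, the all-gene medians became -0.06 and -0.07, and the list split into 10 higher and 7 lower in RIP-OVAhi cells and into 13 higher and 4 lower in OCS/LPS cells.

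**Figure D1:**
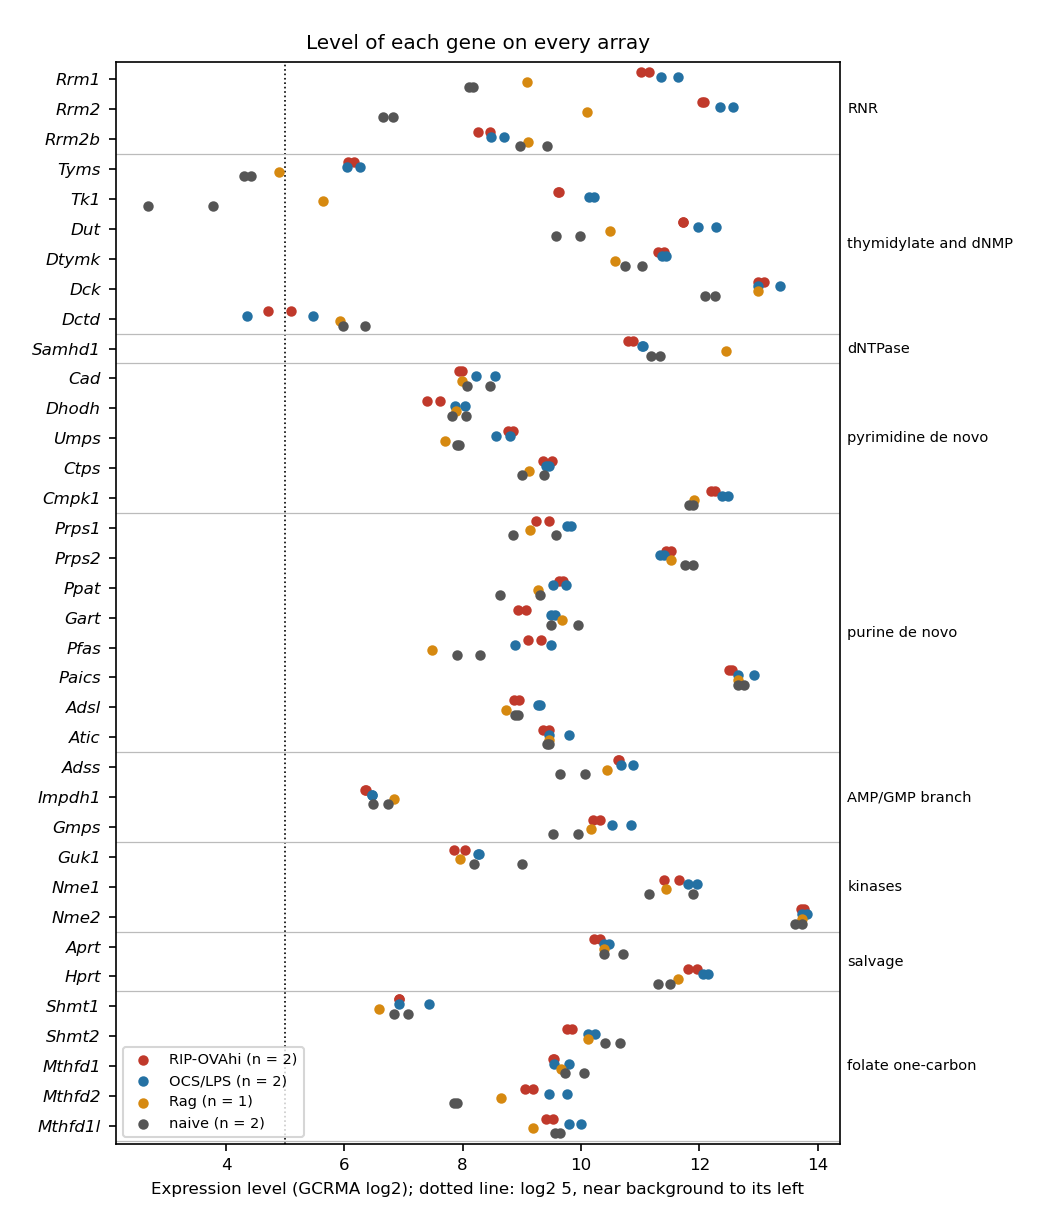
Level of each of the 36 genes on every array (GCRMA log2, horizontal axis), in RIP-OVAhi (n = 2), OCS/LPS (n = 2), Rag (n = 1) and naive cells (n = 2), grouped by role. Each point is 1 array and the dotted line marks log2 5, to the left of which values are near background. The naive points of Rrm1, Rrm2 and Tk1 lie far to the left of the RIP-OVAhi and OCS/LPS points, and Nme2 lies between 13.62 and 13.82 on every array.

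Both subunits of the replicative ribonucleotide reductase rose in the antigen-driven cells. Rrm2, the small subunit whose level follows S phase, read 12.07 and 12.05 in RIP-OVAhi cells, 12.34 and 12.56 in OCS/LPS cells and 10.10 in Rag cells, against 6.66 and 6.82 in naive cells (probe set 1434437_x_at, chromosome 12). No group overlapped another, and OCS/LPS stood highest. Rrm2 rose 40.0-fold in RIP-OVAhi cells (log2 difference 5.32, SE 0.14, adjusted p = 2.5e-05) and 52.5-fold in OCS/LPS cells (5.72, SE 0.14, adjusted p = 1.08e-05). Rrm1, the large catalytic subunit, read 11.02 and 11.15 in RIP-OVAhi cells, 11.35 and 11.64 in OCS/LPS cells and 9.10 in Rag cells, against 8.12 and 8.18 in naive cells (1415878_at, chromosome 7). The order of the groups was the same as for Rrm2, again without overlap. Rrm1 rose 7.67-fold in RIP-OVAhi cells (2.94, SE 0.14, adjusted p = 0.000101) and 10.2-fold in OCS/LPS cells (3.35, SE 0.14, adjusted p = 5.08e-05). In bulk RNA of sorted cells, a level per cell and the share of cells that carry the transcript cannot be told apart.

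Rrm2b, the small subunit used outside S phase and induced by p53, moved the other way. It read 8.47 and 8.26 in RIP-OVAhi cells, 8.70 and 8.49 in OCS/LPS cells and 9.11 in Rag cells, against 9.43 and 8.97 in naive cells (chromosome 15). All 4 antigen-driven arrays lay below both naive arrays, and the Rag array lay between the naive arrays. Rrm2b fell by 0.84 in RIP-OVAhi cells (SE 0.19, adjusted p = 0.024). In OCS/LPS cells the difference was -0.61 and missed the threshold (SE 0.19, adjusted p = 0.0594). Its other probe sets gave 4 estimates between -1.16 and -0.95 over RIP-OVAhi and OCS/LPS cells, all past the threshold in the fit over all probe sets.

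The enzymes of thymidylate and deoxynucleoside supply held 4 risen genes of 6 in RIP-OVAhi cells, and 5 risen and 1 fallen of 6 in OCS/LPS cells. That is 66.7% and 83.3% risen, beside 18.1% and 20.5% of all tested genes, but Tk1 and Tyms had passed the filter through divided cells alone. Tk1, the cytosolic thymidine kinase of S phase, read 9.61 and 9.63 in RIP-OVAhi cells, 10.14 and 10.23 in OCS/LPS cells and 5.64 in Rag cells, against 2.69 and 3.78 in naive cells (1416258_at, chromosome 11). The naive values were near background and more than 1 log2 unit apart, so the size of the rise depends on the background level. Tk1 rose by 6.39 in RIP-OVAhi cells (SE 0.33, adjusted p = 0.00012) and by 6.95 in OCS/LPS cells (SE 0.33, adjusted p = 7.16e-05).

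Dut, the dUTPase that keeps uracil out of DNA and supplies dUMP, read 11.72 and 11.73 in RIP-OVAhi cells, 11.98 and 12.29 in OCS/LPS cells and 10.49 in Rag cells, against 9.57 and 9.99 in naive cells (chromosome 2). It rose by 1.95 in RIP-OVAhi cells (SE 0.19, adjusted p = 0.00117) and by 2.36 in OCS/LPS cells (SE 0.19, adjusted p = 0.000481). The groups of Dut did not overlap, although its second probe set was not called in either comparison. Tyms, thymidylate synthase, read 6.07 and 6.16 in RIP-OVAhi cells, 6.27 and 6.05 in OCS/LPS cells and 4.90 in Rag cells, against 4.31 and 4.42 in naive cells (chromosome 5). RIP-OVAhi and OCS/LPS values overlapped, and Rag and naive values were near background. Tyms rose by 1.75 (SE 0.13, adjusted p = 0.00049) in RIP-OVAhi cells and by 1.79 (SE 0.13, adjusted p = 0.000399) in OCS/LPS cells.

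Dck, the deoxycytidine kinase that salvages several deoxynucleosides, read 13.10 and 13.00 in RIP-OVAhi cells, 13.00 and 13.37 in OCS/LPS cells and 13.00 in Rag cells, against 12.26 and 12.09 in naive cells. It rose by 0.87 in RIP-OVAhi cells (adjusted p = 0.0127) and by 1.01 in OCS/LPS cells (adjusted p = 0.00709), and the divided groups overlapped. Dtymk, which phosphorylates dTMP, rose in OCS/LPS cells by 0.52 (SE 0.14, adjusted p = 0.0364) and differed by 0.47 in RIP-OVAhi cells (SE 0.14, adjusted p = 0.0529). Dctd, the dCMP deaminase, read 4.71 and 5.10 in RIP-OVAhi cells, 4.36 and 5.48 in OCS/LPS cells and 5.93 in Rag cells, against 5.98 and 6.35 in naive cells. Its OCS/LPS arrays were over 1 log2 unit apart, on either side of the filter level. Dctd fell by 1.25 in OCS/LPS cells (SE 0.38, adjusted p = 0.0499), while the difference of -1.26 in RIP-OVAhi cells had an adjusted p of 0.0521.

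Sequences upstream of the start are shown for the genes with the largest rises against naive cells among the reductase subunits (Rrm1 and Rrm2), the thymidylate enzymes (Tk1) and the one-carbon enzymes (Mthfd2). The 250 bases before the RefSeq start on GRCm38.p6 run 5′ to 3′ on the gene's strand, and capitals mark CCAAT or its reverse complement ATTGG. Rrm1 lies at chr7:102441445-102441694 on the plus strand, Rrm2 at chr12:24708004-24708253 on the plus strand, Tk1 at chr11:117826015-117826264 on the minus strand and Mthfd2 at chr6:83317605-83317854 on the minus strand.
Rrm1: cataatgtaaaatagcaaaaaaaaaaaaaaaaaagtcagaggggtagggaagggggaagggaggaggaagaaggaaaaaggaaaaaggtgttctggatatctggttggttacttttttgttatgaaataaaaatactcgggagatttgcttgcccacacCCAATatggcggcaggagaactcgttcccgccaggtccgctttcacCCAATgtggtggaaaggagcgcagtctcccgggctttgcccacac
Rrm2: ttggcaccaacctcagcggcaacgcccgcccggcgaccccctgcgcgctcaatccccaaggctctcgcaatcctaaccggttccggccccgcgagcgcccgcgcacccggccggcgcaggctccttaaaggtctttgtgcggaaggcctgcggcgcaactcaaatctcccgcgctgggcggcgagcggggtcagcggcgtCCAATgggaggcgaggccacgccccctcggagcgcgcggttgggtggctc
Tk1: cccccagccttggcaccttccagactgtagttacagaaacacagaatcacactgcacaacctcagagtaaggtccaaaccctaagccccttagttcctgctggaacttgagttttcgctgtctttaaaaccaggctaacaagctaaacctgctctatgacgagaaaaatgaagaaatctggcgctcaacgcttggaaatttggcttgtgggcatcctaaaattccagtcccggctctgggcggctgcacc
Mthfd2: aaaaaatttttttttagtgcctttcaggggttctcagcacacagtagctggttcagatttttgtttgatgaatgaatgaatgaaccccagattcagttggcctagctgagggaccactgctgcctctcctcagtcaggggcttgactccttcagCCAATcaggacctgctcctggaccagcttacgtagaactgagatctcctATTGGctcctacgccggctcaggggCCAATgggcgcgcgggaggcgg

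The windows of Rrm1, Rrm2 and Mthfd2 hold a CCAAT box, at positions -91 and -45 for Rrm1, at -50 for Rrm2, and at -96, -47 (reverse strand) and -22 for Mthfd2, counted from the start. The Tk1 window holds none of the motifs searched. Promoters of 33 of the 36 genes were matched in the RefSeq table, which gives 250 bases before and 50 after each start. CCAAT, searched on both strands, was found in 12 of 33 genes (36.4%), beside 41.1% of all genes and 37.4% of all promoters in the table. The E-box CACGTG was found in 5 of 33 (Atic, Dtymk, Nme1, Paics and Tyms), beside 8.09% of all genes and 7.15% of all promoters. The E2F words TTTCGCGC and TTTGGCGC, on both strands, were found in 0 of 33 genes, beside 0.929% of all genes and 0.813% of all promoters. None of these words contains another. Of the 11 genes that rose in both antigen-driven groups, 10 had a promoter in the table, and CCAAT was in 3 of them (Rrm1, Rrm2 and Mthfd2), against 9 of the 23 other matched genes. Ppat and Paics, which both encode enzymes of purine ring synthesis, start 276 bases apart on opposite strands of chromosome 5.

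Samhd1, the hydrolase that breaks down deoxynucleoside triphosphates, stood higher in Rag cells than in every other group. It read 10.79 and 10.89 in RIP-OVAhi cells, 11.05 and 11.03 in OCS/LPS cells and 12.46 in Rag cells, against 11.33 and 11.18 in naive cells (1418131_at, chromosome 2). No groups overlapped, with RIP-OVAhi lowest and Rag highest. Samhd1 fell by 0.42 in RIP-OVAhi cells (SE 0.12, adjusted p = 0.049), a call that held under 5 of 14 alternatives. The replicate block (adjusted p = 0.0804) and arrays centred on all probe sets (adjusted p = 0.0941) were among those that lost it. In OCS/LPS cells Samhd1 differed by -0.22 (adjusted p = 0.225). It rose by 1.20 on the single Rag array (SE 0.15, adjusted p = 0.0174, with the Rag array assumed to vary like the other groups). The 8 myeloid markers summed to 6.28 to 6.52 in RIP-OVAhi cells, 8.12 to 8.74 in OCS/LPS cells and 9.99 in Rag cells, against 8.44 to 9.10 in naive cells. Of these 8, Csf1r (8.51), C1qb (7.42), Adgre1 (5.46), Lyz1 (8.46) and Lyz2 (5.79) stood above log2 5 on the Rag array. Lyz1 and Lyz2 lay between the naive arrays there, and C1qa (3.52), Cd68 (4.04) and Itgam (2.42) were under 5. The part of such transcripts in the Samhd1 value was not tested.

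Of the 5 pyrimidine synthesis genes, 1 rose in RIP-OVAhi cells (20%) and 2 in OCS/LPS cells (40%), beside 18.1% and 20.5% of all tested genes. Umps, which makes UMP from orotate, read 8.76 and 8.86 in RIP-OVAhi cells, 8.57 and 8.81 in OCS/LPS cells and 7.71 in Rag cells, against 7.91 and 7.94 in naive cells (chromosome 16). It rose by 0.89 in RIP-OVAhi cells (SE 0.13, adjusted p = 0.00589) and by 0.77 in OCS/LPS cells (SE 0.13, adjusted p = 0.00851), and the antigen-driven arrays all lay above the naive and Rag arrays. With the mean of its probe sets the RIP-OVAhi difference was 0.41 and no longer called (adjusted p = 0.106). Cmpk1, the UMP and CMP kinase, read 12.20 and 12.26 in RIP-OVAhi cells, 12.39 and 12.48 in OCS/LPS cells and 11.91 in Rag cells, against 11.83 and 11.90 in naive cells. It rose by 0.57 in OCS/LPS cells (SE 0.12, adjusted p = 0.0142), and the difference of 0.37 in RIP-OVAhi cells had an adjusted p of 0.0601. Cad, the enzyme of the first 3 steps, differed by -0.31 in RIP-OVAhi cells and by 0.12 in OCS/LPS cells (adjusted p = 0.26 and 0.655). Dhodh, the mitochondrial dehydrogenase of the pathway, differed by -0.44 and 0.02, and the CTP synthase gene Ctps by 0.25 and 0.24, none past the threshold.

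Of the 8 genes of purine ring synthesis to IMP, 1 rose and 1 fell in RIP-OVAhi cells (12.5% each), and 2 rose (25%) and 1 fell (12.5%) in OCS/LPS cells. These shares lay close to or below those of all tested genes, except that risen genes in OCS/LPS cells stood slightly above (20.5%). Pfas, the fourth enzyme of the path, read 9.11 and 9.33 in RIP-OVAhi cells, 8.89 and 9.50 in OCS/LPS cells and 7.48 in Rag cells, against 8.29 and 7.91 in naive cells (chromosome 11). It rose by 1.12 in RIP-OVAhi cells (SE 0.24, adjusted p = 0.0195) and by 1.10 in OCS/LPS cells (SE 0.24, adjusted p = 0.019), and the Rag array was the lowest of all. Gart, whose protein carries 3 of the steps, read 9.08 and 8.94 in RIP-OVAhi cells, 9.50 and 9.56 in OCS/LPS cells and 9.68 in Rag cells, against 9.95 and 9.50 in naive cells. The RIP-OVAhi arrays were the lowest and the remaining groups overlapped. Gart fell by 0.71 in RIP-OVAhi cells (SE 0.18, adjusted p = 0.0287) and differed by -0.20 in OCS/LPS cells (SE 0.18, adjusted p = 0.429).

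Adsl, adenylosuccinate lyase, rose by 0.38 in OCS/LPS cells (SE 0.11, adjusted p = 0.0488) and differed by 0.00 in RIP-OVAhi cells. Ppat, the amidotransferase of the committed step, differed by 0.70 in RIP-OVAhi cells (adjusted p = 0.0766) and 0.66 in OCS/LPS cells (adjusted p = 0.081), with naive arrays at 9.32 and 8.63. Atic and Paics, later enzymes of the path, were not called on the probe sets used. Prps2, one of the enzymes that make the activated ribose PRPP, read 11.44 and 11.52 in RIP-OVAhi cells, 11.34 and 11.40 in OCS/LPS cells and 11.52 in Rag cells, against 11.90 and 11.75 in naive cells. Every divided array lay below both naive arrays. Prps2 fell by 0.46 in OCS/LPS cells (SE 0.12, adjusted p = 0.0333) on this probe set only, and Prps1 was not called (0.13 in RIP-OVAhi and 0.58 in OCS/LPS cells).

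From IMP, the enzymes toward AMP and GMP are Adss, Impdh1 and Gmps. Adss, adenylosuccinate synthase, read 10.64 and 10.63 in RIP-OVAhi cells, 10.68 and 10.88 in OCS/LPS cells and 10.44 in Rag cells, against 10.07 and 9.65 in naive cells. It rose by 0.77 in RIP-OVAhi cells (SE 0.18, adjusted p = 0.0227) and by 0.92 in OCS/LPS cells (SE 0.18, adjusted p = 0.012), and every divided array lay above the naive ones. Gmps, GMP synthase, read 10.21 and 10.32 in RIP-OVAhi cells, 10.52 and 10.85 in OCS/LPS cells and 10.17 in Rag cells, against 9.53 and 9.94 in naive cells. The order was OCS/LPS, RIP-OVAhi, Rag and naive without overlap. Gmps rose by 0.95 in OCS/LPS cells (SE 0.19, adjusted p = 0.0143), and the difference of 0.53 in RIP-OVAhi cells had an adjusted p of 0.0905. Impdh1, an IMP dehydrogenase, was not called (-0.26 in RIP-OVAhi and -0.15 in OCS/LPS cells).

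Among the salvage enzymes, Hprt, which returns hypoxanthine and guanine to nucleotides, rose and Aprt, its counterpart for adenine, was not called. Hprt read 11.81 and 11.97 in RIP-OVAhi cells, 12.15 and 12.06 in OCS/LPS cells and 11.64 in Rag cells, against 11.30 and 11.51 in naive cells (chromosome X). All divided arrays exceeded the naive arrays. It rose by 0.49 in RIP-OVAhi cells (SE 0.14, adjusted p = 0.0431) and by 0.70 in OCS/LPS cells (SE 0.14, adjusted p = 0.0127). These calls held under 5 and 12 of 14 alternatives. Aprt differed by -0.28 and -0.12. The nucleotide kinases Nme1, Nme2 and Guk1 gave 0 calls in limma in either comparison with naive cells. At an unadjusted p under 0.05 they gave 0, beside 41.8% of all tested genes in RIP-OVAhi cells and 44.6% in OCS/LPS cells. Guk1 differed by -0.65 in RIP-OVAhi cells (limma, unadjusted p = 0.0516) and by -0.33 in OCS/LPS cells, with naive arrays at 8.19 and 9.01. Nme1 differed by 0.00 and 0.36, with naive arrays at 11.15 and 11.89. With naive arrays this far apart, a missed threshold does not show that Guk1 and Nme1 did not differ. Nme2, a nucleoside diphosphate kinase, read 13.62 to 13.82 over all 7 arrays.

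**Figure D2:**
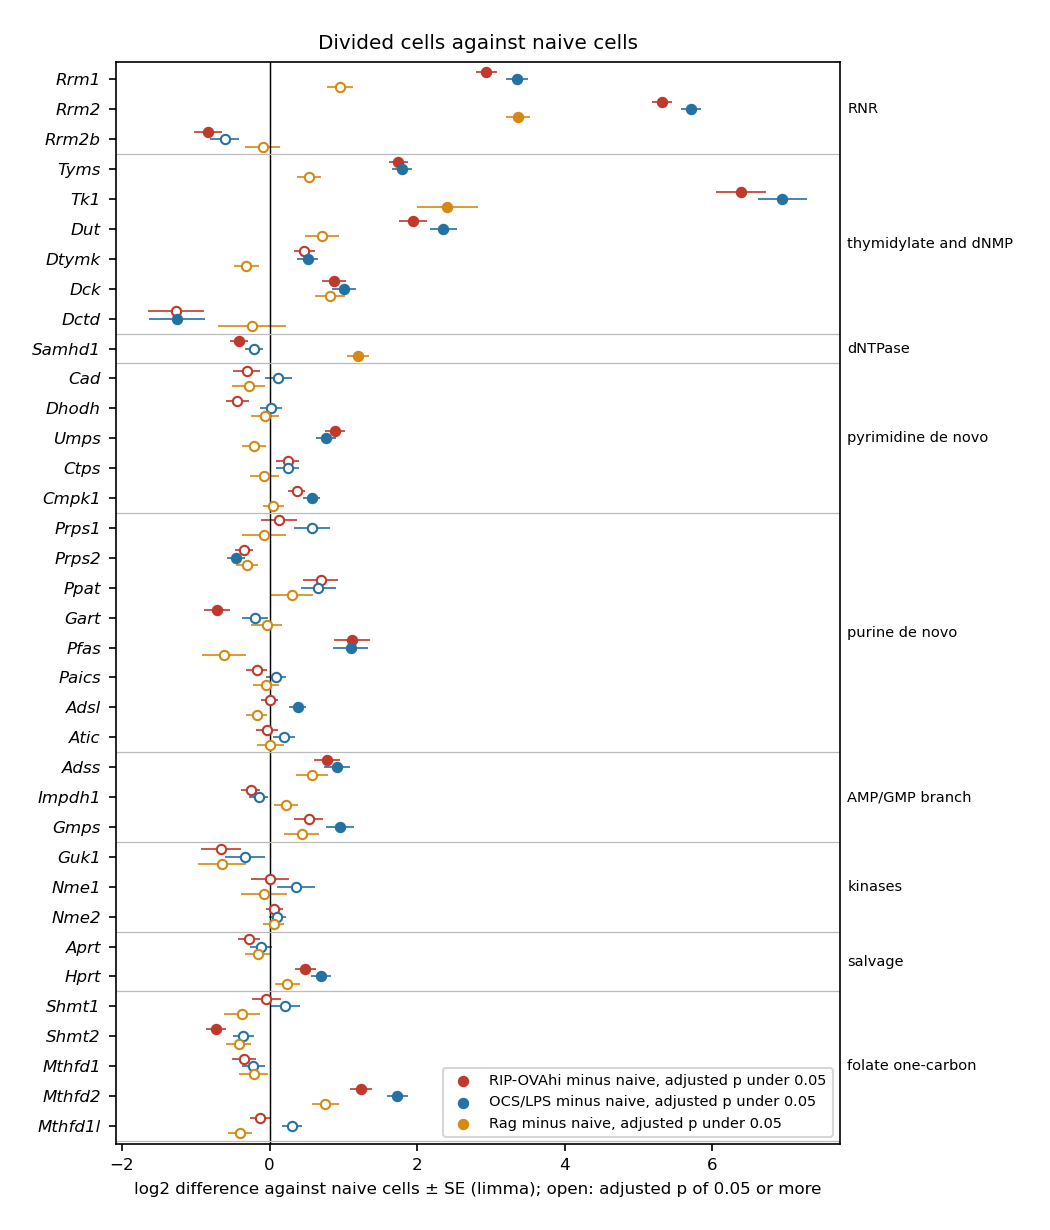
Difference of each gene from naive cells (log2, horizontal axis) in RIP-OVAhi, OCS/LPS and Rag cells, as limma estimates with bars of 1 SE, grouped by role. Filled points have an adjusted p under 0.05 and open points do not. Tk1 (6.39 and 6.95), Rrm2 (5.32 and 5.72) and Rrm1 (2.94 and 3.35) stand to the right in RIP-OVAhi and OCS/LPS cells, and the Rag point of Samhd1 lies at 1.20.

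Of the 5 one-carbon genes, 1 rose and 1 fell in RIP-OVAhi cells (20% each), and 1 rose (20%) and 0 fell in OCS/LPS cells, where limma gave 1 higher and 1 lower at an unadjusted p under 0.05. The risen shares were near those of all tested genes. Mthfd2, the mitochondrial methylene-tetrahydrofolate dehydrogenase and cyclohydrolase typical of proliferating cells, read 9.05 and 9.19 in RIP-OVAhi cells, 9.47 and 9.76 in OCS/LPS cells and 8.64 in Rag cells, against 7.91 and 7.86 in naive cells (1419254_at, chromosome 6). No groups overlapped. Mthfd2 rose by 1.24 in RIP-OVAhi cells (SE 0.15, adjusted p = 0.00256) and by 1.73 in OCS/LPS cells (SE 0.15, adjusted p = 0.000604). Shmt2, which splits serine in mitochondria and so feeds Mthfd2, read 9.85 and 9.77 in RIP-OVAhi cells, 10.23 and 10.13 in OCS/LPS cells and 10.12 in Rag cells, against 10.41 and 10.66 in naive cells (1455084_x_at). Its arrays ran the other way, with naive highest and RIP-OVAhi lowest. Shmt2 fell by 0.72 in RIP-OVAhi cells (SE 0.14, adjusted p = 0.0129), and the difference of -0.35 in OCS/LPS cells had an adjusted p of 0.0992. Its other tested probe sets gave -0.61 and -0.38 in RIP-OVAhi cells and were not called. The cytosolic enzymes Shmt1 and Mthfd1 were not called (-0.04 and -0.35 in RIP-OVAhi cells, 0.21 and -0.22 in OCS/LPS cells). Mthfd1l, which releases formate from mitochondria, was not called against naive cells either (-0.13 in RIP-OVAhi and 0.30 in OCS/LPS cells).

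The comparison of RIP-OVAhi with OCS/LPS cells sets tolerance against priming at the same 60 h. Limma called 0 of the 36 genes, where 1.61% of all tested genes were called higher and 1.3% lower, and the lowest adjusted p was 0.176, for Mthfd2. At an unadjusted p under 0.05, 0 genes were higher and 8 lower, beside 7.24% and 9.3% of all tested genes. The estimate was negative for 31 of the 36 genes, beside 58.1% of all tested genes. Both RIP-OVAhi arrays lay below both OCS/LPS arrays for 24 of the 36 genes and above them for 1, beside 34% and 23.5% of all tested genes. The list median was -0.23 and that of all tested genes -0.05, and the differences ran from -0.56 to 0.12. Exact permutation of 2 arrays against 2 could not give a p below 0.333.

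The individual intervals show how large a difference these arrays leave possible. For Mthfd2 the difference was -0.49 with a 95% interval of -0.85 to -0.14. For Gart it was -0.52 (-0.95 to -0.09), for Rrm1 -0.41 (-0.77 to -0.06) and for Rrm2 -0.39 (-0.73 to -0.06). These intervals are not adjusted for the number of genes, and none of these genes passed the adjusted threshold. Tk1 had the lowest estimate, -0.56, and an interval of -1.38 to 0.26, and in the fit on the 4 RIP-OVAhi and OCS/LPS arrays alone it was called (adjusted p = 0.0419). Tyms differed by -0.05 (-0.38 to 0.28) and Umps by 0.12 (-0.21 to 0.44). The summed cycling markers were lower in RIP-OVAhi than in OCS/LPS cells as well (14.97 to 15.11 against 15.18 to 15.38). So were those of myeloid cells (6.28 to 6.52 against 8.12 to 8.74), MHC class II (5.57 to 5.78 against 7.65 to 8.40), plasma cells (4.44 to 4.60 against 8.21 to 9.08) and B cells (8.44 to 8.96 against 9.28 to 9.69). The part of any of them in these differences was not tested.

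**Figure D3:**
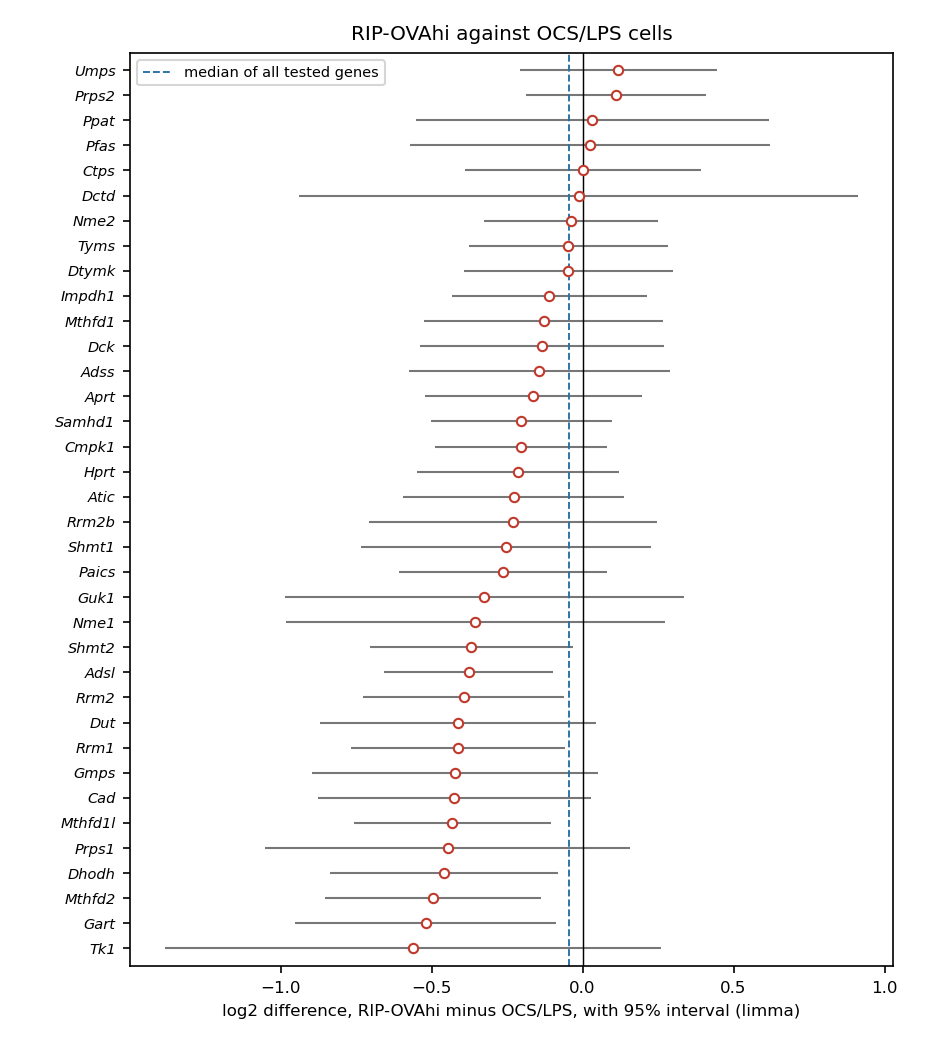
Difference of RIP-OVAhi from OCS/LPS cells (log2, horizontal axis) for each of the 36 genes, with its 95% interval from limma, in order of size (n = 2 arrays per group). The dashed line marks the median of all tested genes, -0.05. Most points lie to the left of it, from 0.12 for Umps down to -0.56 for Tk1, and all are open because no adjusted p was under 0.05.

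On the single array of cells from Rag hosts, taken at 5 days, calls against naive cells were few in the list and over all tested genes. In limma 3 of 36 (8.33%) were called higher (Rrm2, Tk1 and Samhd1) and 0 lower, beside 2.15% and 0.585% of all tested genes. At an unadjusted p under 0.05 there were 9 higher and 2 lower, beside 11.4% and 6.73% of all tested genes. With 1 array, no spread within the Rag group could be measured. Rrm2 rose by 3.36 (SE 0.17, adjusted p = 0.00155) and Tk1 by 2.41 (SE 0.41, adjusted p = 0.0437). The Tk1 call held under 8 of 13 alternatives and that of Samhd1 under 9 of 13, and without any single RIP-OVAhi or OCS/LPS array only Rrm2 was called. Rrm1 differed by 0.95 (SE 0.18, adjusted p = 0.0559) and Mthfd2 by 0.76 (SE 0.18, adjusted p = 0.103). Pfas (-0.61) and Umps (-0.21), which rose in the antigen-driven cells, had negative estimates in Rag cells that were not called.

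Against Rag cells, 8 of the 36 genes were higher in RIP-OVAhi cells and 1 lower, where 9.84% and 6.9% of all tested genes were called. In OCS/LPS cells 11 were higher and 1 lower, where 11.2% and 6.9% were called. The 8 higher in both were Rrm1, Rrm2, Tyms, Tk1, Dut, Dtymk, Umps and Pfas, and OCS/LPS cells added Adsl, Mthfd2 and Mthfd1l. Tk1 was higher by 3.98 in RIP-OVAhi cells (adjusted p = 0.00316) and by 4.54 in OCS/LPS cells (adjusted p = 0.00193). Pfas was higher by 1.74 and 1.71 (adjusted p = 0.015 and 0.016) and Umps by 1.10 and 0.98 (adjusted p = 0.00946 and 0.0137). Samhd1 was the gene called lower in both, by -1.62 in RIP-OVAhi cells (adjusted p = 0.00214) and -1.42 in OCS/LPS cells (adjusted p = 0.00323). These comparisons share the Rag array, and time after transfer (60 h or 5 days) and host cannot be told apart in them.

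Several genes were read by more than 1 probe set, and these did not always match. In a separate fit over all 16140 tested probe sets, 73 of the list's 85 probe sets were tested. In RIP-OVAhi against naive cells 20 of the 73 rose and 9 fell, where 15% and 12% of all probe sets did, and in OCS/LPS against naive cells 27 rose and 7 fell, where 18% and 14.3% did. Of the 22 genes with at least 2 tested sets, all sets rose in 4 genes in RIP-OVAhi cells and in 6 genes in OCS/LPS cells. The other Rrm2 sets gave larger rises, of 6.17 and 6.82 in RIP-OVAhi cells and 6.65 and 7.57 in OCS/LPS cells. Gmps and Prps2 had sets called in opposite directions in OCS/LPS cells. For Gmps, 1455057_at fell by 0.60 (adjusted p = 0.0471) where the set used rose. For Prps2, 1420637_at rose by 1.13 (adjusted p = 0.00798) where the set used fell.

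Paics, a bifunctional purine enzyme, shows how the choice of set decides a call. The set used, 1436298_x_at, differed by -0.17 in RIP-OVAhi cells and 0.09 in OCS/LPS cells, and the suffix _x_at is the manufacturer's mark for probes that may also match other transcripts. The sets used for Rrm2, Shmt2 and Mthfd1 carry the same mark. The set 1423565_at read 11.66 and 11.82 in RIP-OVAhi cells, 12.00 and 11.97 in OCS/LPS cells and 11.35 in Rag cells, against 10.99 and 11.11 in naive cells. On it Paics rose by 0.69 in RIP-OVAhi cells (adjusted p = 0.0158) and by 0.93 in OCS/LPS cells (adjusted p = 0.00549), with no overlap with naive or Rag cells. Atic, Shmt1 and Samhd1 likewise had another set that was called in OCS/LPS cells: Atic fell by 0.79 (adjusted p = 0.0431), Shmt1 rose by 1.12 (adjusted p = 0.0123) and Samhd1 fell by 1.24 (adjusted p = 0.0118).

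**Figure D4:**
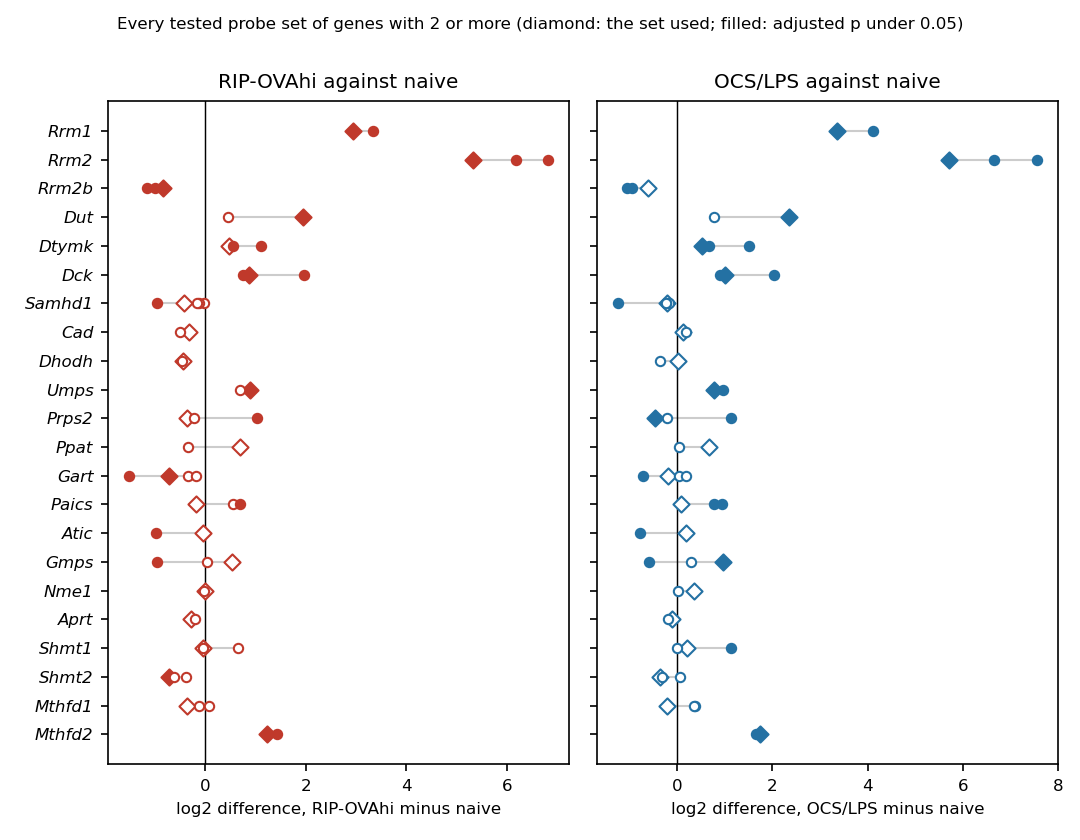
Difference from naive cells (log2, horizontal axes) of every tested probe set of the 22 genes with at least 2, in RIP-OVAhi cells (left) and OCS/LPS cells (right). Diamonds are the sets used for the gene and circles are its other sets, filled where the adjusted p in the fit over all probe sets was under 0.05. All sets of Rrm1, Rrm2, Dck and Mthfd2 lie to the right and filled in both panels, and the sets of Gmps and Prps2 fall on both sides of 0.

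Around these enzymes, 83 further genes of folate supply, serine and methionine metabolism, salvage, nucleotidases, transport, pentose phosphate and glutamine supply were listed, of which 69 were named on the array and 49 tested. In RIP-OVAhi against naive cells 16 rose (32.7%) and 6 fell (12.2%), beside 18.1% and 11.6% of all tested genes. In OCS/LPS against naive cells 17 rose (34.7%) and 5 fell (10.2%), beside 20.5% and 12.3%. The shares of all tested genes apply to each smaller list that follows. Of 6 serine and methionine genes 3 rose (50%) and 1 fell (16.7%) in each comparison. Psat1, an aminotransferase of serine synthesis, rose by 1.50 in RIP-OVAhi cells (SE 0.14, adjusted p = 0.00115) and by 1.80 in OCS/LPS cells (adjusted p = 0.000491). Phgdh, the first enzyme of that path, rose by 0.47 (adjusted p = 0.0373) and 0.61 (adjusted p = 0.015), and the first of these calls held under 6 of 14 alternatives. Mtap, which recovers adenine and methionine from a polyamine by-product, fell by 0.98 in RIP-OVAhi cells and by 0.81 in OCS/LPS cells. Of 8 folate genes, 0 rose and 1 fell in RIP-OVAhi cells (12.5%) and 1 rose and 1 fell in OCS/LPS cells (12.5% each).

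Purine salvage and breakdown held 3 risen (37.5%) and 2 fallen (25%) of 8 genes in RIP-OVAhi cells and 3 risen (37.5%) and 1 fallen (12.5%) in OCS/LPS cells. Pnp, purine nucleoside phosphorylase, rose by 0.99 in RIP-OVAhi cells and by 1.32 in OCS/LPS cells, and Adk, adenosine kinase, by 0.93 and 1.02, although the Adk calls held under 7 and 8 of 14 alternatives. Ampd1, an AMP deaminase, fell by 2.57 in RIP-OVAhi cells (SE 0.25, adjusted p = 0.00124) and by 1.45 in OCS/LPS cells (adjusted p = 0.00838). The difference between these groups, -1.12, had an adjusted p of 0.0943. Of 10 nucleotidases and pool-cleaning enzymes, 6 rose in RIP-OVAhi cells (60%), and 5 rose (50%) and 1 fell (10%) in OCS/LPS cells. Among them Nudt1, which removes oxidised purine triphosphates, rose by 1.35 and 1.53, and Itpa, which removes inosine triphosphate, by 1.08 and 1.28. In pyrimidine salvage limma called 0 of 5 higher, and 2 lower in RIP-OVAhi cells (40%) and 1 in OCS/LPS cells (20%), where 0 and 1 were higher at an unadjusted p under 0.05. Tk2, the mitochondrial thymidine kinase, fell in both groups (by 0.73 and 0.65), and each call held under 7 of 14 alternatives. The equilibrative nucleoside transporter gene Slc29a1 read 6.17 and 5.87 in RIP-OVAhi cells, 5.59 and 5.49 in OCS/LPS cells and 4.55 in Rag cells, against 4.64 and 3.32 in naive cells. It was called higher than in naive cells in both antigen-driven groups, but it passed the filter through those groups alone, its naive values were near background and over 1 log2 unit apart, and each call held under 7 of 13 alternatives.

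Nt5e, which encodes the surface 5'-nucleotidase CD73 that makes adenosine from AMP, was the 1 gene of the 49 called between RIP-OVAhi and OCS/LPS cells (2.04%, beside 1.61% of all tested genes called higher and 1.3% lower). It read 6.60 and 6.39 in RIP-OVAhi cells, 3.98 and 3.56 in OCS/LPS cells and 6.80 in Rag cells, against 5.07 and 5.14 in naive cells. The OCS/LPS arrays were near background and the lowest, and RIP-OVAhi and Rag arrays were the highest. Nt5e was higher in RIP-OVAhi than in OCS/LPS cells by 2.72 (SE 0.18, adjusted p = 0.00186). Against naive cells it rose by 1.38 in RIP-OVAhi cells (adjusted p = 0.0033) and by 1.70 in Rag cells (adjusted p = 0.0183), and it fell by 1.34 in OCS/LPS cells (adjusted p = 0.00341). The call between RIP-OVAhi and OCS/LPS cells held under the 13 alternatives that tested the gene, and the Rag call under 9 of 12. With the mean of its probe sets Nt5e was below the filter and was not tested.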

How the data were processed

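RNA of sorted OT-I cells was measured on 7 Affymetrix arrays in 4 groups. The deposited values are log2 expression levels of 45101 probe sets, made by the authors with GCRMA per the submitters' processing notes; no version of it is given in those notes. GCRMA corrects background from probe sequence and quantile-normalises all arrays together, which hides any shift common to most genes. Arrays have no read depth, and their number limits the precision. Per the labels' protocols, 100 ng of RNA was amplified in a kit with a repeated cycle before biotin labelling.

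The deposited values were used without further normalisation. Names come from the platform annotation, in which 34958 probe sets carry a single symbol, 932 several and 9211 none, and 34754 of the first kind matched RefSeq genes of GRCm38.p6. Each gene was read from its probe set with the highest mean. Genes with log2 of at least 5 on at least 2 arrays were tested, and values under 5 are called near background. The test was limma 3.58.1 (R 4.3.3; lmFit and eBayes) on all 7 arrays with 4 group means, which leaves 3 residual and adds 2.93 prior degrees of freedom (prior SD 0.156). The single Rag array borrows its spread from the remaining groups. In each of 6 comparisons two-sided p-values were adjusted (Benjamini-Hochberg) over 8203 genes, with calls under 0.05. SE is the moderated standard error. Separate experiments are not stated for the pools, so the p-values cover only the spread among these pools. The procedure was tested on simulated data.

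The genes, the role groups, the further pathway lists and the markers were chosen with earlier results of these data known. Per-array values are given for up to 3 called genes per role group by size against naive cells and for genes called in opposite directions. Those of Dck, Dctd, Nme2, a second Paics set and the naive arrays of Ppat, Guk1 and Nme1 were added after their values were seen. Further genes are named to account for every listed gene. Alternatives were no filter or a stricter filter on low values, 2 centrings of the arrays and the mean of a gene's probe sets. Also run were a limma variance prior that follows the expression level, a replicate block and fits on the compared arrays alone. Each RIP-OVAhi, OCS/LPS and naive array was left out in turn, but not the Rag array. The centring on tested genes and the fit over single probe sets were chosen after seeing the data.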

Additional observations from a re-analysis of the deposited data

Results flagged for a closer look

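Samhd1, the hydrolase of deoxynucleoside triphosphates, was listed here because its effects against naive cells ran in opposite directions in 2 hosts. It stood lower in RIP-OVAhi than in Rag cells by -1.62 on the log2 scale (limma, adjusted p = 0.00214), and the difference itself passed the test. The Rag group is 1 array, taken at 5 days. Against naive cells, the fall of Samhd1 in RIP-OVAhi cells was called under 5 of 14 alternatives and its rise in Rag cells under 9 of 13.

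Nt5e, which encodes the ecto-5'-nucleotidase CD73, was listed for the same reason in 2 pairs of groups. The difference of RIP-OVAhi minus OCS/LPS cells was 2.72 (adjusted p = 0.00186), and that of OCS/LPS minus Rag cells was -3.03 (limma, adjusted p under the threshold of 0.05). Its OCS/LPS values were near background, so both sizes depend on the background level. Nt5e fell below the filter with the mean of its probe sets and was not tested there, and both differences were called under each alternative that tested the gene.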

How the results depend on the processing

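Against naive cells, Rrm1, Rrm2, Tyms, Tk1, Dut and Mthfd2 were called under every alternative that tested them, in RIP-OVAhi and in OCS/LPS cells. That is 6 of 15 and 6 of 17 calls. With the mean of its probe sets Tyms was below the filter, so that run did not test it. In Rag against naive cells 1 of 3 calls held throughout (Rrm2). Against Rag cells 4 of 9 held in RIP-OVAhi (Rrm1, Rrm2, Tk1 and Samhd1) and 5 of 12 in OCS/LPS cells (the same with Tyms). The least stable calls in RIP-OVAhi against naive cells were Samhd1 and Hprt (5 of 14 alternatives) and Rrm2b, Gart and Adss (8 of 14). In OCS/LPS cells they were Dtymk and Prps2 (6 of 14), Dctd (6 of 13), Adsl (7 of 14) and Pfas (8 of 14). With no filter on low values, RIP-OVAhi against naive gave 2 lower genes instead of 4 and 12 further pathway genes instead of 22, and OCS/LPS against naive gave 1 lower gene instead of 2. There RIP-OVAhi against Rag gave 5 higher genes and 4 further genes, OCS/LPS against Rag 6 further genes, and Rag against naive 0. A stricter filter, or centring on all probe sets, left 1 lower gene in OCS/LPS against naive. Centring on the tested genes gave 7 lower genes in RIP-OVAhi and 4 in OCS/LPS cells against naive. With the mean of a gene's probe sets, Nt5e fell below the filter, and further pathway calls were 0 in Rag against naive, 0 in RIP-OVAhi against OCS/LPS and 7 in RIP-OVAhi against Rag, and Prps2 in OCS/LPS against naive turned to 0.16. Fits on the compared arrays alone gave 2 lower and 11 further genes in RIP-OVAhi against naive and 0 lower in OCS/LPS against naive. Between RIP-OVAhi and OCS/LPS cells they gave 1 lower gene (Tk1, -0.56, adjusted p = 0.0419) and 2 further genes. The causes were not tested, except that such fits hold fewer arrays and the unfiltered fit more genes.

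The replicate numbers of the labels (1 and 2) name no shared animal or batch. The correlation of replicate differences was 0.325, 0.348 and 0.132 between group pairs, and -0.02, 0.20 and -0.06 without X and Y genes. With a replicate block, RIP-OVAhi against naive gave 11 higher and 4 lower, OCS/LPS against naive 13 and 2, and Rag against naive 3 and 0. RIP-OVAhi against OCS/LPS gave 0 and 0 with 2 further pathway genes, RIP-OVAhi against Rag 7 and 2, and OCS/LPS against Rag 8 and 2.

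Leaving out each array in turn gave, for RIP-OVAhi against naive, 6 to 15 higher, 0 to 6 lower and 4 to 25 further pathway genes. OCS/LPS against naive gave 6 to 17, 0 to 3 and 9 to 28, Rag against naive 1 to 5, 0 to 1 and 0 to 6, and RIP-OVAhi against OCS/LPS 0 higher, 0 to 1 lower and 1 to 2. RIP-OVAhi against Rag gave 3 to 8, 1 to 4 and 1 to 18, and OCS/LPS against Rag 4 to 14, 1 to 2 and 2 to 21. The 6 higher genes in RIP-OVAhi came without its replicate 2 (7 without replicate 1) and the 6 in OCS/LPS without its replicate 2. In Rag against naive 1 gene was higher without any single RIP-OVAhi or OCS/LPS array, and 5 without the first naive array. RIP-OVAhi against Rag gave 3 without either RIP-OVAhi array, and OCS/LPS against Rag gave 4 without the second OCS/LPS array and 5 without either RIP-OVAhi array. Tk1 was the gene called lower in RIP-OVAhi than in OCS/LPS cells without either naive array. Those fits take their spread from the RIP-OVAhi and OCS/LPS arrays alone. For this pair they repeat the fit on the compared arrays and are not separate support. The Rag array was not left out, and the share of all tested genes called was not computed for the leave-out fits. With 2 arrays per group, a missed threshold does not show that values did not differ.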
